A study of Mus musculus with 16 samples.

Results

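A set of 8 genes named as stretch-responsive ankyrin repeat, LIM and Xin proteins of cardiac muscle were followed through ventricular cardiomyocyte RNA of GPER KO and intact mice. They were chosen by gene symbol: Ankrd1, Ankrd2, Ankrd23, Csrp3, Fhl1, Fhl2, Xirp1 and Xirp2. Of the 8 genes 7 had a probe set in the platform annotation, 9 probe sets in all among 45141, and Xirp2 was not analysed here. GPER is a G protein-coupled estrogen receptor. The arrays came from 16 mice labelled as 15 weeks old, while the study's methods give a somewhat older age. Each sex had 4 GPER-knockout (GPER KO) and 4 wild-type (intact) animals, 1 array per animal, and no treatment is named for any group. The study describes the deletion as one in cardiomyocytes. The Cre driver, the deleted part of the gene and the alleles that the intact mice carry are not given in the sources used here.

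The muscle ankyrin repeat proteins Ankrd1, Ankrd2 and Ankrd23 bind the elastic I-band region of titin, the giant spring protein of the sarcomere, and can also enter the nucleus. Csrp3, a muscle LIM protein, and Fhl1 and Fhl2, which consist almost wholly of LIM domains, sit at the Z-disc or the I-band and are held to pass on mechanical strain. Xirp1 and Xirp2 carry Xin repeats, bind actin filaments and are found at the intercalated disc, where cardiomyocytes join end to end. Ankrd1 is widely used as a marker of cardiac overload.

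Only Ankrd1 among the 7 measured genes differed between GPER KO and intact cardiomyocytes by the test over all genes. Its promoter is shown here beside 1 start site each of Csrp3 and Fhl2, both genes with no call. The sequences are RefSeq sequences of build GRCm38.p6, 250 bases before the annotated start, written 5′ to 3′ on the strand of the gene. Capitals mark matches on either strand to CATTCC, the M-CAT element that TEAD factors bind, to GATAA, the core of a GATA factor site, and to the CArG box, which serum response factor binds.
Ankrd1, chr19:36119845-36120094, minus strand: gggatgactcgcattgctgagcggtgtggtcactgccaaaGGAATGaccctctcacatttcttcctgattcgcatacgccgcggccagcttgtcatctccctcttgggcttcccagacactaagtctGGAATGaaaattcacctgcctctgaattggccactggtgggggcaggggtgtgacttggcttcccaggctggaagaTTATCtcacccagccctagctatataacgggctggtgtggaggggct
Fhl2, chr1:43163962-43164211, minus strand: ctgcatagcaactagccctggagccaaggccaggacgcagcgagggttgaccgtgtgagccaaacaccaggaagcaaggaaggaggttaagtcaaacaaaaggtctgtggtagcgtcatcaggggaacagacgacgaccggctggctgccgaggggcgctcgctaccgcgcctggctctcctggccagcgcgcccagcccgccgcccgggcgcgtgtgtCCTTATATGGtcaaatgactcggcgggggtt
Csrp3, chr7:48848052-48848301, minus strand: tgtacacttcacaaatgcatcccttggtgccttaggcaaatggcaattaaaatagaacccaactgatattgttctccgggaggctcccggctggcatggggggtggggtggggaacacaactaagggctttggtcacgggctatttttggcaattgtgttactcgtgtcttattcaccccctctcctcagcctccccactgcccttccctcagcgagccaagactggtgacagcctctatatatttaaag
The Ankrd1 sequence held CATTCC on its opposite strand, as GGAATG, at -210 and -123 and GATAA, also on the opposite strand, at -47, counted from the first base after the sequence, which is the start site, to the leftmost base of the match. It held no CArG box. The Fhl2 sequence held a CArG box at -31, and the Csrp3 sequence held none of these 3 motifs. The other start of Fhl2, not printed, held GATAA at -62 and a CArG box at -96. The table of promoters had 7 of the 8 genes, Xirp1 being the one without an entry, with 11 start sites between them. Of these 11 sequences, those of Ankrd1 and of 1 start of Ankrd23 held CATTCC. The motif GATAA was in 3 of the 11, those of Ankrd1 and of 1 start each of Ankrd23 and Fhl2. A CArG box was also in 3 of the 11, those of both Fhl2 starts and of 1 Fhl1 start. Over all 32851 promoter sequences of the same length, 12.6% held CATTCC, 22.6% GATAA and 1.47% a CArG box. Matches of CANNTG, the E-box, were present in 10 of the 11 and in 66.2% of all sequences. The printed sequences hold it too, unmarked. A MEF2 site was in 1 of the 11, that of Xirp2, and in 0.508% of all sequences. The motifs were searched on both strands, and CANNTG, the CArG box and the MEF2 site read alike on both. A match is a description of the letters and not a binding site.

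The preparations were strained and spun but not sorted. Cardiomyocyte markers had high values, with 9 of 10 measured and Ryr2, the dimmest of them, at percentile 98.8 of genes. Gper1, the targeted gene, had 1 probe set at percentile 24.3 of probe sets, with means of 2.79 ± 0.13 and 2.87 ± 0.16 (log2, SD, n = 4) in female GPER KO and intact mice and 2.78 ± 0.07 and 2.77 ± 0.12 in males. At that signal, and with the deleted part unknown, it gives no check of the genotype labels. Female intact 422 stood apart from its group in 3 of the 7 genes, Csrp3, Fhl2 and Xirp1, and the female differences of these are given with and without it. In whole-cell RNA of such preparations, fewer cells of a type and less RNA per cell cannot be told apart.

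Ankrd1, the cardiac ankyrin repeat protein, was higher in GPER KO than in intact cardiomyocytes of both sexes. In females the log2 values were 11.95, 11.97, 11.67 and 11.46 in GPER KO 417, 419, 426 and 427. They were 10.68, 10.76, 10.61 and 10.40 in intact 418, 421, 422 and 425. In males the GPER KO values were 11.86, 11.96, 11.90 and 11.85 for 431, 432, 444 and 451, and the intact values 11.29, 10.81, 11.42 and 11.15 for 430, 433, 452 and 453. Every GPER KO array lay above every intact array, also across the sexes. In both female and male comparisons the groups did not overlap, which held for 5.69% of all genes in females and 6.21% in males.

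The difference in females was 1.15 on the log2 scale (standard error 0.13, adjusted p = 0.000393 from limma), a fold change of 2.22 with a 95% interval of 1.84 to 2.67. In males it was 0.72 (standard error 0.13, adjusted p = 0.0120), a fold change of 1.65 with an interval of 1.37 to 1.99. Averaged over both sexes it was 0.94 (standard error 0.09, adjusted p = 3.34e-05), or 1.91-fold. Among 17097 genes Ankrd1 ranked 4 by p-value in females and 44 in males. In females 1 of the 7 genes was called higher, where 0.123% of all genes were, and 0.281% were called in either direction. In males it was again 1 of 7, where 0.509% of all genes were called higher and 0.620% in either direction. Over both sexes 0.825% were called higher and 1.36% in either direction. With 7 genes these counts describe Ankrd1 and say little about the others. The genes were chosen with earlier results of these data known, so the counts are not independent support.

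**Figure D1:**
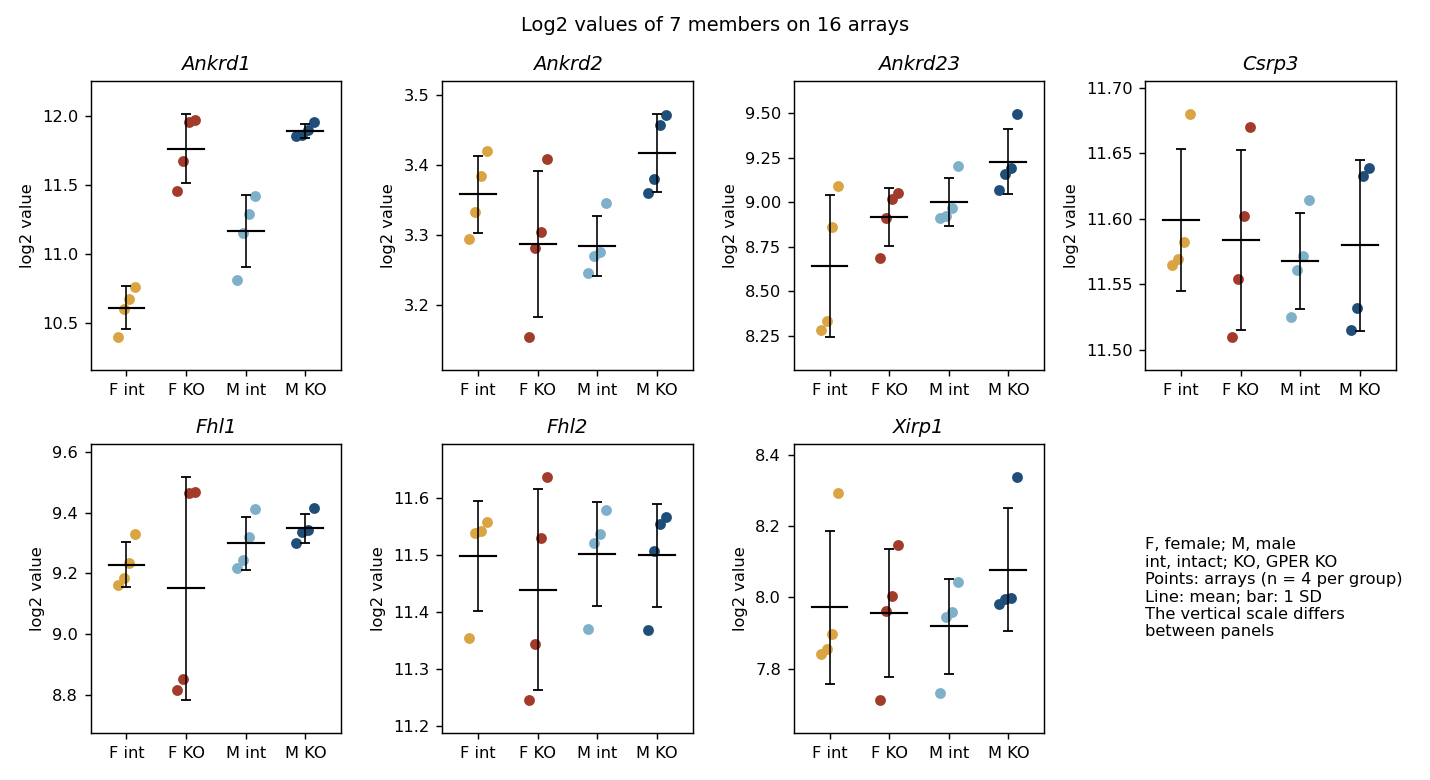
Log2 value of the main probe set of each of the 7 measured genes on the vertical axis, by sex and genotype on the horizontal axis. Each point is an array, with the mean of its group as a line and 1 SD as a bar (4 arrays per group), and the vertical scale differs between panels. In the panel of Ankrd1 all 8 GPER KO arrays lie above all 8 intact arrays, whereas in the panel of Csrp3 the 4 groups overlap.

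Ankrd1 also differed between the sexes among intact mice, short of the threshold. The females carry animal numbers 417 to 427 and the males 430 to 453. A difference between the sexes cannot be told apart here from one between these blocks of numbers. Its mean rose in order from female intact (10.61 ± 0.15, SD, n = 4) through male intact (11.17 ± 0.26) and female GPER KO (11.76 ± 0.25) to male GPER KO (11.89 ± 0.05). The 2 GPER KO groups overlapped, and the other neighbours in this order did not. Male minus female intact was 0.56 (standard error 0.13, adjusted p = 0.0571 from limma), or 1.47-fold, with no overlap, as in 8.44% of all genes. Of the 17097 genes 0.281% were called higher and 0.298% lower in males (0.579% in all), and none of the 7 was among them, with 2 at an unadjusted p under 0.05, as were 17.5% of all genes. The male minus female difference of the genotype effect was -0.43 (standard error 0.18, 95% interval -0.81 to -0.05, unadjusted p = 0.0291, adjusted p = 0.427), so a smaller change in males was not shown. Limma called 0 of 17097 genes for that difference, with 1875 at an unadjusted p under 0.05.

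The other probe set of Ankrd1 gave the same order of groups. Both probe sets are annotated to the same gene and were read on the same arrays, so they are not independent measurements. On the 16 arrays the value of the brighter set, used above, lay 0.07 to 0.35 above that of the dimmer one. Tested among all 45141 probe sets, of which 0.122% were called in females and 0.290% in males, the dimmer set was higher in GPER KO by 1.10 in females (adjusted p = 0.000387 from limma) and by 0.58 in males (adjusted p = 0.0411). With this probe set the male minus female difference among intact mice was 0.64 (standard error 0.11) and passed the test (adjusted p = 0.0333), where 0.246% of probe sets were called. Its lowest female GPER KO value, 11.27 on 427, lay just under its highest male intact value, 11.29 on 452. The male minus female difference of the genotype effect was -0.52 with the dimmer set (standard error 0.16). It did not pass the test over all probe sets (unadjusted p = 0.00516, adjusted p = 0.463 from limma), which called 0 of them.

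**Figure D2:**
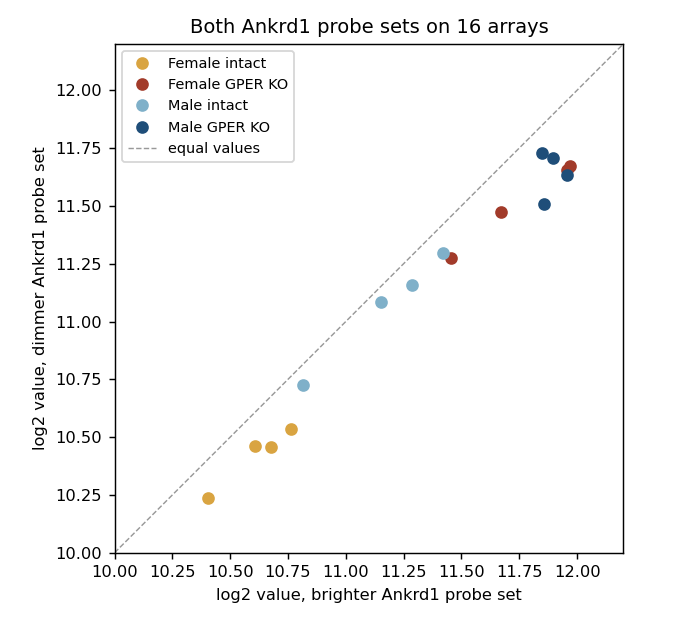
Log2 value of the brighter Ankrd1 probe set on the horizontal axis against the dimmer one on the vertical axis, with 1 point for each of 16 arrays, coloured by sex and genotype. The dashed line marks equal values. All points lie below it, and the female intact arrays, with 10.40 to 10.76 on the horizontal axis, are at the lower left.

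The other muscle ankyrin repeat genes had no call. Ankrd23, which is known for its response to metabolic state as well as to stretch, had log2 values of 9.02, 8.69, 9.05 and 8.91 in female GPER KO 417, 419, 426 and 427, and of 8.28, 8.33, 9.09 and 8.86 in female intact 418, 421, 422 and 425. The female intact arrays thus fell into a low pair and a pair that overlapped with the GPER KO arrays. In males the values were 9.16, 9.07, 9.49 and 9.19 in GPER KO 431, 432, 444 and 451 and 9.20, 8.97, 8.92 and 8.91 in intact 430, 433, 452 and 453. The groups overlapped through intact 430. The difference was 0.28 in females (95% interval -0.05 to 0.60, adjusted p = 0.479 from limma) and 0.23 in males (-0.10 to 0.55, adjusted p = 0.690). Averaged over both sexes it was 0.25, or 1.19-fold (unadjusted p = 0.0342, adjusted p = 0.373). Among intact mice male minus female was 0.36 (interval 0.03 to 0.69, unadjusted p = 0.0326, adjusted p = 0.241). Without female intact 422 these were 0.33 over both sexes and 0.51 among intact mice, and without intact 418 they were 0.19 and 0.24. The female difference was 0.43 without intact 422, 0.16 without intact 418 and 0.17 without intact 421, and the male difference was 0.14 without GPER KO 444.

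Ankrd2, the member best known from skeletal muscle, had low values of 3.15 to 3.47 over all 16 arrays, with a mean at percentile 45.5 of probe sets. Detection calls were not used here, so whether these values lie above background was not assessed. In males GPER KO 431, 432, 444 and 451 had 3.46, 3.38, 3.36 and 3.47, and intact 430, 433, 452 and 453 had 3.27, 3.28, 3.24 and 3.35. These groups did not overlap, as in 6.21% of all genes, and differed by 0.13 (standard error 0.06, unadjusted p = 0.0318, adjusted p = 0.421 from limma). In females the difference was -0.07 (interval -0.19 to 0.05, adjusted p = 0.649), with -0.03 without GPER KO 419 and -0.11 without GPER KO 427. The male minus female difference of the genotype effect was 0.20 (unadjusted p = 0.0216, adjusted p = 0.426).

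Of the LIM genes, Csrp3, whose mutations cause cardiomyopathy, varied least. Its 16 values lay between 11.51 and 11.68, and all 4 groups overlapped. The difference between GPER KO and intact was -0.02 in females (interval -0.12 to 0.09, adjusted p = 0.939 from limma) and 0.01 in males (-0.10 to 0.12, adjusted p = 0.965). As fold changes the intervals reach from 0.917 to 1.07 in females and from 0.935 to 1.09 in males. Intact 422 was the highest female intact array, and the female difference without it was 0.01.

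Fhl1, a LIM-only protein tied to titin and to the hypertrophic response, spread widely among female GPER KO arrays. The values were 8.82, 8.85, 9.47 and 9.47 in GPER KO 417, 419, 426 and 427, with an SD of 0.37, against SDs of 0.05 to 0.09 in the other groups. The female intact arrays lay between these pairs, at 9.19, 9.33, 9.23 and 9.16 for 418, 421, 422 and 425. The male values were 9.30 to 9.41 in GPER KO and 9.22 to 9.41 in intact mice. The genotype difference was -0.08 in females (interval -0.34 to 0.19, adjusted p = 0.845 from limma) and 0.05 in males (-0.21 to 0.31, adjusted p = 0.938). In females its sign turned without GPER KO 417 or 419. The intervals of both sexes rest on a spread pooled over the 4 groups (standard error 0.12). With arrays of 1 sex alone the standard error was 0.15 in females and 0.06 in males. The other probe set of Fhl1 was dim, with values of 3.33 to 3.76, had no call, and did not follow the bright one between arrays of a group (r = 0.09 over 16 arrays).

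Fhl2, a LIM-only cofactor abundant in heart, had values of 11.25, 11.34, 11.53 and 11.64 in female GPER KO 417, 419, 426 and 427, in the same order as the Fhl1 pairs. Female intact arrays had 11.54, 11.56, 11.35 and 11.54 for 418, 421, 422 and 425. All male arrays lay between 11.37 and 11.58. The difference was -0.06 in females (interval -0.23 to 0.12, adjusted p = 0.818) and -0.003 in males (-0.18 to 0.17, adjusted p = 0.994). Without intact 422 the female difference was -0.11.

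Xirp1, an actin-binding protein of the intercalated disc, had values of 7.96, 7.71, 8.0 and 8.15 in female GPER KO and 7.84, 7.86, 8.29 and 7.90 in female intact mice, in order of animal number. In males these were 8.0, 8.0, 7.98 and 8.34 in GPER KO and 8.04, 7.73, 7.95 and 7.96 in intact mice. The groups overlapped in both sexes. The difference was -0.02 in females (interval -0.26 to 0.23, adjusted p = 0.968) and turned to 0.09 without intact 422 and to 0.06 without GPER KO 419. In males it was 0.16 (interval -0.09 to 0.40, adjusted p = 0.724), with 0.07 without GPER KO 451 and 0.10 without intact 433. Over the 7 genes the median log2 difference was -0.02 in females and 0.13 in males, beside -0.02 and 0.01 over all genes tested. With each array left out in turn these medians ran from -0.08 to 0.02 in females, with the sign turned without intact 422 or without GPER KO 417 or 419, and from 0.07 to 0.15 in males.

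**Figure D3:**
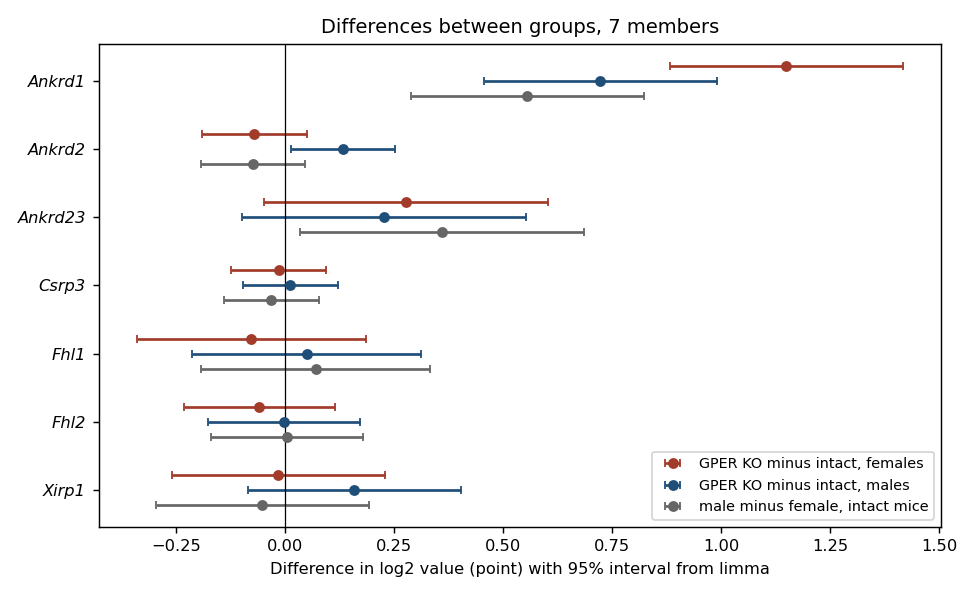
Difference in log2 value on the horizontal axis for each of the 7 genes on the vertical axis, with points for the estimate and bars for the 95% interval from limma. Red is GPER KO minus intact in females, blue the same in males and grey male minus female among intact mice. The intervals of Ankrd1 lie to the right of 0 in all 3 comparisons, while those of Csrp3, Fhl1, Fhl2 and Xirp1 include 0.

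Whether the genes varied together between animals was examined on deviations from the 4 group means. Of 21 pairs none passed a two-sided permutation test of Pearson's r after Benjamini-Hochberg adjustment, and 1 had an unadjusted p under 0.05. The lowest p was that of Csrp3 and Fhl2, with Pearson r = -0.69 (permutation p = 0.0157, adjusted p = 0.330) and Spearman rho = -0.58 (permutation p = 0.0541, adjusted p = 0.528) over 16 arrays. Without the 2 arrays farthest from the median of Csrp3, GPER KO 417 and intact 422 of the females, r was -0.49. Within the groups of 4 arrays r was -0.98 in female GPER KO, -0.98 in female intact, -0.48 in male GPER KO and 0.30 in male intact. Next by p came Ankrd23 and Xirp1, with r = 0.54 (permutation p = 0.0585, adjusted p = 0.420), rho = 0.52 (permutation p = 0.0764, adjusted p = 0.528) and r = 0.28 without female intact 422 and 418. Ankrd1 and Csrp3 had r = 0.50 (permutation p = 0.0606, adjusted p = 0.420) and rho = 0.49 (permutation p = 0.0820, adjusted p = 0.528), and r was 0.30 without male intact 433 and female GPER KO 427. Ankrd1 and Fhl2 had r = -0.54 (permutation p = 0.0965, adjusted p = 0.420) and rho = -0.35 (permutation p = 0.265, adjusted p = 0.528), and r was -0.41 without the same arrays. Fhl1 and Fhl2 had r = 0.67 (permutation p = 0.144, adjusted p = 0.420) and rho = 0.46 (permutation p = 0.213, adjusted p = 0.528), with r = 0.54 without GPER KO 417 and 426 of the females. Within the groups their r was 0.95 in female GPER KO, 0.04 in female intact, 0.75 in male GPER KO and -0.37 in male intact.

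**Figure D4:**
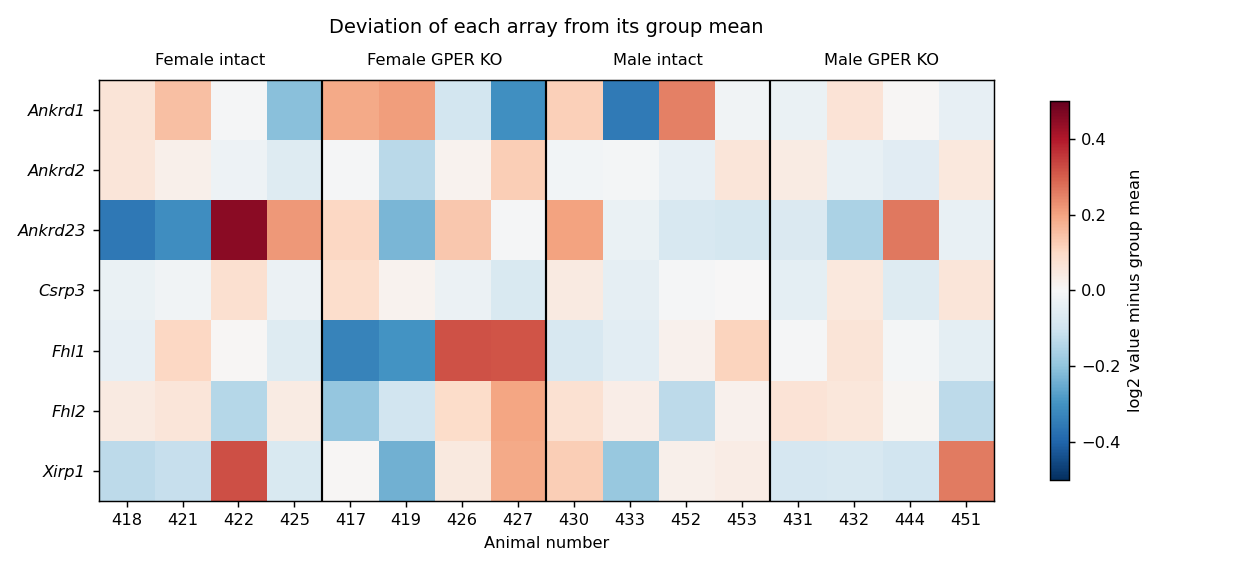
Deviation of each array from the mean of its group in log2 units, as colour, for the 7 genes on the vertical axis and the 16 animals on the horizontal axis, grouped by sex and genotype. Red is above and blue below the group mean. In the row of Fhl1 female GPER KO 417 and 419 are blue and 426 and 427 are red, and in the row of Ankrd23 female intact 422 is the deepest red, 0.45 above its group mean.

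The genes whose deviations were most like those of Ankrd1 over the 16 arrays were Zfp90 (Pearson r = 0.85, Spearman rho = 0.74), Klc1 (0.85 and 0.82) and Krtap12-1 (0.84 and 0.66). For Ankrd23 these were P2ry4 (0.92 and 0.94), Tmem171 (0.89 and 0.86) and Slc41a3 (0.88 and 0.84). For Fhl1 they were Slc25a5 (0.91 and 0.81), Ltv1 (0.90 and 0.79) and 1700013H16Rik (0.89 and 0.84). For Csrp3 they were Fcsk (0.91 and 0.86), Lrrc69 (0.91 and 0.88) and Grem1 (0.88 and 0.87). For Fhl2 they were Zmpste24 (0.88 and 0.80), Cdc5l (0.87 and 0.86) and Ift43 (0.87 and 0.89). For Xirp1 they were Neto1 (0.91 and 0.83), Prpf19 (0.90 and 0.85) and Akap1 (0.89 and 0.84), and for Ankrd2 Fbxw11 (0.86 and 0.82), Synj1 (0.84 and 0.63) and Cstf2t (0.84 and 0.81). These were picked as the highest among all other genes tested, on arrays that were normalized together, and are a description.

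Other genes of the same structures were largely without calls. For the counts at an unadjusted p under 0.05 that follow, the share of all genes was 12.6% in females, 10.1% in males and 11.7% over both sexes. For the counts of called genes, here and below, it was 0.281%, 0.620% and 1.36%. Of 30 measured genes of other LIM proteins, 10 were above and 20 below intact in females and 20 above and 10 below in males, with 0 called by limma in either sex and 2 in each at an unadjusted p under 0.05. Their medians were -0.09 in females and 0.03 in males. Over both sexes 0 were called, and 7 of the 30 had an unadjusted p under 0.05. Pdlim4, a PDZ and LIM protein, had the lowest p of the 30 in females, with -0.44 (adjusted p = 0.182 from limma). It was also first by p over both sexes, with -0.32 (adjusted p = 0.0918). Csrp2, the smooth muscle relative of Csrp3, had -0.71 in females (adjusted p = 0.284). Pdlim1, also a PDZ and LIM protein, had 0.35 in males (adjusted p = 0.128). Of 19 titin and Z-disc partners 0 were called in either sex, with 4 in females and 6 in males at an unadjusted p under 0.05. Over both sexes 7 of the 19 had an unadjusted p under 0.05 and 1 was called, where 1.36% of all genes were. This was Des, the intermediate filament protein desmin, which was higher by 0.25 (standard error 0.05, adjusted p = 0.0253 from limma). Among intact mice Myot, which encodes the Z-disc protein myotilin, was higher in males by 0.997 (standard error 0.16, adjusted p = 0.0131). Of 19 intercalated disc and costamere partners 0 were called in either sex, with 2 and 6 at an unadjusted p under 0.05. Over both sexes 0 of these 19 were called, with 3 at an unadjusted p under 0.05. Gja1, the connexin of ventricular gap junctions, had 0.26 over both sexes (adjusted p = 0.146).

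Among 22 transcriptional regulators linked to these genes, 16 were below intact in females and 12 in males. Tbx5, a T-box factor, was the called gene in females, with -0.33 (standard error 0.06, adjusted p = 0.0382), and 7 of the 22 had an unadjusted p under 0.05 there. In intact mice Tbx5 was also lower in males than in females (log2 difference -0.34, adjusted p = 0.0356). None was called in males, where 3 had an unadjusted p under 0.05, or over both sexes, again with 3. Of 15 genes induced in loaded cardiomyocytes 10 were above intact in females and 12 in males, with medians of 0.13 and 0.20. An unadjusted p under 0.05 was met by 5 of the 15 in females, 7 in males and 7 over both sexes. Nppa, atrial natriuretic peptide, was called in both sexes by limma, with 1.18 (adjusted p = 0.048) in females and 1.41 (adjusted p = 0.00903) in males. Nppb, brain natriuretic peptide, was called in males, at 1.0 (standard error 0.20, adjusted p = 0.0323), and not in females. For the difference between the sexes 0 of the 15 were called, so a rise of Nppb particular to males was not shown. Over both sexes Nppa, Nppb and Ccn2, a matricellular growth factor, were called higher, at 1.29, 0.91 and 0.83 (adjusted p = 0.000577, 0.00304 and 0.00906 from limma). Nppa and Nppb were among known results of these data when this list was written, so their place in it is not independent support.

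Levels of markers of other cells are given beside those of Ankrd1. Of all genes 0.281% were called in females, 0.620% in males and 1.36% over both sexes, in either direction. Macrophage markers were above intact in 13 of 14 genes in females and 14 of 14 in males, with 0 and 6 called and 5 and 13 at an unadjusted p under 0.05. Their mean log2 level ranged from 4.83 to 5.16 in female GPER KO and 4.52 to 4.76 in female intact arrays, and from 5.08 to 5.81 and 4.65 to 5.25 in males. None was at 0, and Cd68 had the lowest mean, 3.52. Of the endothelial markers 15 of 15 were below the intact mean in females and in males, with 0 called, 1 and 3 at an unadjusted p under 0.05, and levels of 6.41 to 7.01 in female GPER KO, 6.68 to 7.21 in female intact, 6.50 to 7.01 in male GPER KO and 6.62 to 7.48 in male intact arrays. Fibroblast markers were above intact in 10 of 12 genes in females and 8 of 12 in males, with 0 called and 1 and 3 at an unadjusted p under 0.05. Their levels were 5.72 to 6.05 in female GPER KO, 5.41 to 5.97 in female intact, 5.60 to 6.33 in male GPER KO and 5.51 to 6.14 in male intact arrays. Of 6 atrial markers, Nppa included, 5 were below intact in females (median -0.42) and 5 above in males (median 0.86), with 3 and 2 at an unadjusted p under 0.05 and no call other than Nppa. For the difference between the sexes 0 were called by limma, with 4 at an unadjusted p under 0.05. Levels of the list were 6.34 to 7.55 in female GPER KO, 6.63 to 7.73 in female intact, 7.17 to 8.07 in male GPER KO and 6.33 to 7.47 in male intact arrays. Immediate early genes, which respond to cell isolation, were below intact in 12 of 15 genes in females and 11 of 15 in males, with 0 called and 1 and 0 at an unadjusted p under 0.05. Averaged over both sexes 14 of the 15 were below intact, with 0 called and 5 under that p, beside 11.7% of all genes. Endothelial markers were then below intact in 15 of 15, with 0 called and 5 under that p. Such counts were 12 of 14 for macrophage (6 called), 4 of 12 for fibroblast (0 called) and 1 of 6 for atrial markers (1 called, Nppa). The part of these cells and genes in the values of Ankrd1 was not tested. The mean log2 level of the 9 cardiomyocyte markers was 12.48 to 12.54 in female GPER KO, 12.47 to 12.54 in female intact, 12.47 to 12.51 in male GPER KO and 12.53 to 12.59 in male intact arrays.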

How the data were processed

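Total RNA of cardiomyocytes was hybridised to GeneAtlas MG-430 PM arrays, 1 for each of 16 mice. The deposited table holds 1 log2 value for each probe set and array, which the authors obtained with RMA (robust multi-array averaging). The submitters' processing notes name RMA and Partek without versions. Array medians lay between 3.47 and 3.51. RMA aligns the distributions of all arrays, so a shift shared by most genes is not visible. Symbols came from the platform annotation, updated through Entrez identifiers to RefSeq (28689 of 28898 probe sets with 1 symbol matched). Another 551 probe sets have several symbols and 15692 none. The probe set with the highest mean stood for a gene. A linear model of the 4 groups was fitted to all 17097 genes (limma 3.58.1 in R 4.3.3). P-values were adjusted over all genes by Benjamini-Hochberg, and an adjusted p under 0.05 was called. The fit was tested on simulated data. Correlations used 100000 permutations within groups.

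Named genes were all 8 members, up to 4 called genes (or 2 with the lowest p) of each of 6 lists and the 3 genes most like each member. Members and lists were chosen with earlier results of these data known. The 7 marker lists included atrial (1 called gene in each sex, Nppa), smooth muscle (0 called) and blood markers (0 called). The p-values from limma weigh a difference of group means against the spread between arrays within groups, each array from 1 animal. That spread is pooled over all 4 groups and moderated across genes, so it is not that of the compared groups alone. The number of 4 arrays per group limits the precision. Alternatives were other choices of probe set, a filter at the 40 percentile, renormalization, median centring, array weights, eBayes settings, 1 sex alone, and arrays left out.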

Additional observations from a re-analysis of the deposited data

Results flagged for a closer look

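In groups of 4 arrays the gap between an extreme array and its neighbour was compared with the group's range, in 28 combinations of gene and group. Chance flags about 1 in 20 groups. On 4 occasions the gap exceeded Dixon's critical value. Female intact 422 was highest in Csrp3 (11.68) and in Xirp1 (8.29) and lowest in Fhl2 (11.35) among female intact arrays. Male GPER KO 451 was highest in Xirp1 (8.34) among male GPER KO arrays.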

How the results depend on the processing

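Ankrd1 was called higher in GPER KO under each alternative run, with log2 differences of 1.08 to 1.25 in females (27 alternatives, adjusted p up to 0.0101), 0.58 to 0.81 in males (26 alternatives, adjusted p up to 0.0411) and 0.84 to 0.99 over both sexes (26 alternatives). The count of called members was 1 in each of these and 0 for the difference between the sexes. Among intact mice the count of called members was 0, but 1, Ankrd1, with the mean of probe sets (0.60, adjusted p = 0.05), with every probe set tested, with quantile normalization applied again (0.59, adjusted p = 0.0379) and without male intact 433 (0.67, adjusted p = 0.0321). Leaving out each array gave 0 to 1. Over all 27 alternatives the adjusted p of this difference ran from 0.0321 to 0.249. The cause was not tested.

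Of 899 member values under an alternative 56 had the opposite sign, and none of these belonged to a called value. Fhl1 in males was -0.0366 with the mean of probe sets, and its dim probe set gave -0.12 in males, -0.11 for the difference between the sexes and -0.0412 for male minus female intact. Quantile normalization again gave Csrp3 0.012 in females, 0.0119 over both sexes and -0.0001 for the difference, and Fhl2 0.0044 in males. Array weights gave Xirp1 0.0463 in females, Fhl2 0.0317 in males and -0.0255 between intact sexes, and Fhl1 0.0113 over both sexes. Without female intact 421 and 422, Csrp3 was 0.0169 in females, 0.0144 over both sexes, -0.005 for the difference and 0.0006 between intact sexes. Xirp1 was then 0.0869 in females and 0.0502 between intact sexes, Fhl1 0.013 over both sexes and Fhl2 -0.0385 between intact sexes. With each array left out, the ranges in females were -0.0438 to 0.0118 for Csrp3, -0.183 to 0.0342 for Fhl1, -0.125 to 0.0051 for Fhl2 and -0.0793 to 0.0911 for Xirp1. In males they were -0.0079 to 0.0334 for Csrp3 and -0.0462 to 0.0411 for Fhl2. Over both sexes they were -0.0159 to 0.0119 for Csrp3, -0.0667 to 0.042 for Fhl1 and -0.0636 to 0.0013 for Fhl2. For the difference between the sexes they were -0.20 to 0.0698 for Ankrd23 and -0.0077 to 0.12 for Fhl2, and between intact sexes -0.0441 to 0.0473 for Fhl2 and -0.0957 to 0.0544 for Xirp1. No pair of members passed the correlation test with or without 2 arrays. No paired analysis was possible because each array carries its own animal number and the groups share none.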
